A study of Mus musculus with 13 samples.

Results

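Integrins and laminins were taken as every protein-coding gene of the count table whose mouse symbol is that of an integrin alpha subunit, an integrin beta subunit or a laminin alpha, beta or gamma chain. The rule gave 37 of 48795 genes, of which 36 are reported here: 18 integrin alpha and 8 integrin beta subunits, and 10 laminin chains. RNA was measured in whole right hemispheres (olfactory bulb and cerebellum removed) of mice at postnatal day 11 on a C57BL/6J strain background. The 5 nlsYAP5SA mice (NexCre +/- YAP5SAnls +/-) carried a transgene for a constitutively active, nuclear YAP1 behind a floxed STOP, together with Cre recombinase driven from the NEX (Neurod6) locus. The 5 controls (NexCre -/- YAP5SAnls +/-) were littermates with the transgene and no Cre, and 3 further mice were wild-type C57BL/6 (WT). The transgene is thus shared by control and nlsYAP5SA mice, and Cre is active only in the NEX lineage, which gives rise to pyramidal neurons. Mice of both sexes were used, the sex of each mouse was not recorded, and control and nlsYAP5SA mice came from more than a single mating, with the mating of each mouse not given.

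Integrins are receptors at the cell surface, each made of an alpha and a beta subunit, that tie the extracellular matrix or other cells to the actin cytoskeleton. Laminins are secreted trimers of an alpha, a beta and a gamma chain that assemble into basement membranes, which in the brain surround the vessels and line the pia. A separate class, the leukocyte integrins, pairs Itgb2 with its own alpha subunits and is carried in the brain mainly by microglia, the resident macrophages.

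Libraries held between 20871566 and 25524349 estimated counts, with overlapping totals in the 3 groups, and the 36 genes took 0.0556% to 0.0913% of them. Yap1 was at 19.96 to 22.3 counts scaled to library size (CPM) in the control group, 22.6 to 26.6 CPM in nlsYAP5SA mice and 19.4 to 21.6 CPM in C57BL/6 mice. Neurod6, the gene of the Cre driver, was at 91.5 to 110.0, 38.9 to 56.8 and 88.02 to 103 CPM, and Ccn2 (Ctgf), a target gene of YAP1, at 16.4 to 19.4, 38.4 to 55.8 and 21.4 to 24.8 CPM, so the nlsYAP5SA libraries stood apart from the controls in all 3 genes. RNA of 4 Y-linked genes (Ddx3y, Eif2s3y, Kdm5d and Uty) was present in all 5 controls, in nlsYAP5SA mice 3 and 4 and in C57BL/6 mice 1 and 3, and was near 0 in nlsYAP5SA mice 1, 2 and 5 and C57BL/6 mouse 2, so part of the comparison with controls is also one between libraries with and without Y-linked RNA. The choroid plexus gene Ttr ranged from 0.783 to 276 CPM over the 13 libraries, with high and low libraries in every group. Markers of cortical excitatory neurons summed to 3209 to 3991 CPM in the controls, 2733 to 3459.8 CPM in the nlsYAP5SA mice and 3454 to 3779 CPM in C57BL/6 mice, so markers of the labelled tissue were present.

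Per length, as CPM per kilobase of exon, the mRNA of the control hemisphere was dominated by Itgb1, the common beta subunit, with 36.04 ± 3.74 (SD, n = 5). The next in order were Itgb5 (9.86 ± 0.774), Itgb8 (7.58 ± 1.95) and Lamc1 (7.32 ± 1.21), of which Itgb8 and Lamc1 lay within 1 SD of each other. Among alpha subunits, Itgav, the partner of Itgb5 and Itgb8, led with 5.54 ± 1.27, followed by the laminin receptor subunit Itga6 (4.64 ± 0.654) and by Itgam (3.31 ± 0.824), the alpha subunit of the microglial integrin CD11b/CD18. The highest laminin alpha chain was Lama4 (2.18 ± 0.296), a chain of vascular basement membranes, and Lamb1 (3.77 ± 0.476) and Lamb2 (3.70 ± 0.474) were nearly equal. The lowest members were Itgb6, Itgax, Itgad, Itga2 and Itgae, each with less than 0.207 CPM per kilobase, the mean of the next gene in order, Itga10. Itgb6 had at most 3 reads in any control or nlsYAP5SA library, so a difference in it was not detectable at this depth.

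To ask whether active YAP1 in the NEX lineage goes along with other levels of adhesion receptors and laminins, nlsYAP5SA mice were compared with controls. After the filter on low counts 32 of the 36 genes could be tested, all but Itgad, Itgae, Itgax and Itgb6. Called higher were 7 genes, namely Itga3, Itgal, Itgam, Itgb2, Itgb5, Lama5 and Lamb2, and none was called lower. This is 21.9% of the 32, where 10.8% of all 16315 genes tested were called, 7.36% higher and 3.44% lower. A gene was called at 0.05 or less of the edgeR adjusted p, that is, the p of edgeR's quasi-likelihood test after Benjamini-Hochberg adjustment over all genes. In 6 of the 32 genes every nlsYAP5SA mouse lay above every control, against 6.5% of all genes. The median log2 fold change of the 32 was 0.15, that of all genes -0.01, and 22 of the 32 were higher and 10 lower in the mean. In whole tissue, more cells of a type and more RNA per cell cannot be told apart.

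Among libraries with Y-linked RNA alone (5 controls, nlsYAP5SA mice 3 and 4), 3 of 33 genes tested remained called higher, where 1.97% of all 16918 genes were called: Itga3 (log2 fold change 0.86, edgeR adjusted p = 0.00482), Itgb2 (1.58, adjusted p = 0.00575) and Lama5 (0.81, adjusted p = 0.0272). The other 4 kept their direction and were no longer called, with 1.05 for Itgal, 0.90 for Itgam, 0.33 for Itgb5 and 0.20 for Lamb2. Correcting each library for the GC content and length of transcripts by an ordinary loess fit kept the 7 calls and added Itga7 as higher and Itga4, Itgb3 and Lama4 as lower, 11 genes in all, where the share of all genes called rose from 10.8% to 20.9%, and with that correction 37.5% rather than 68.1% of all calls were higher.

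**Figure D1:**
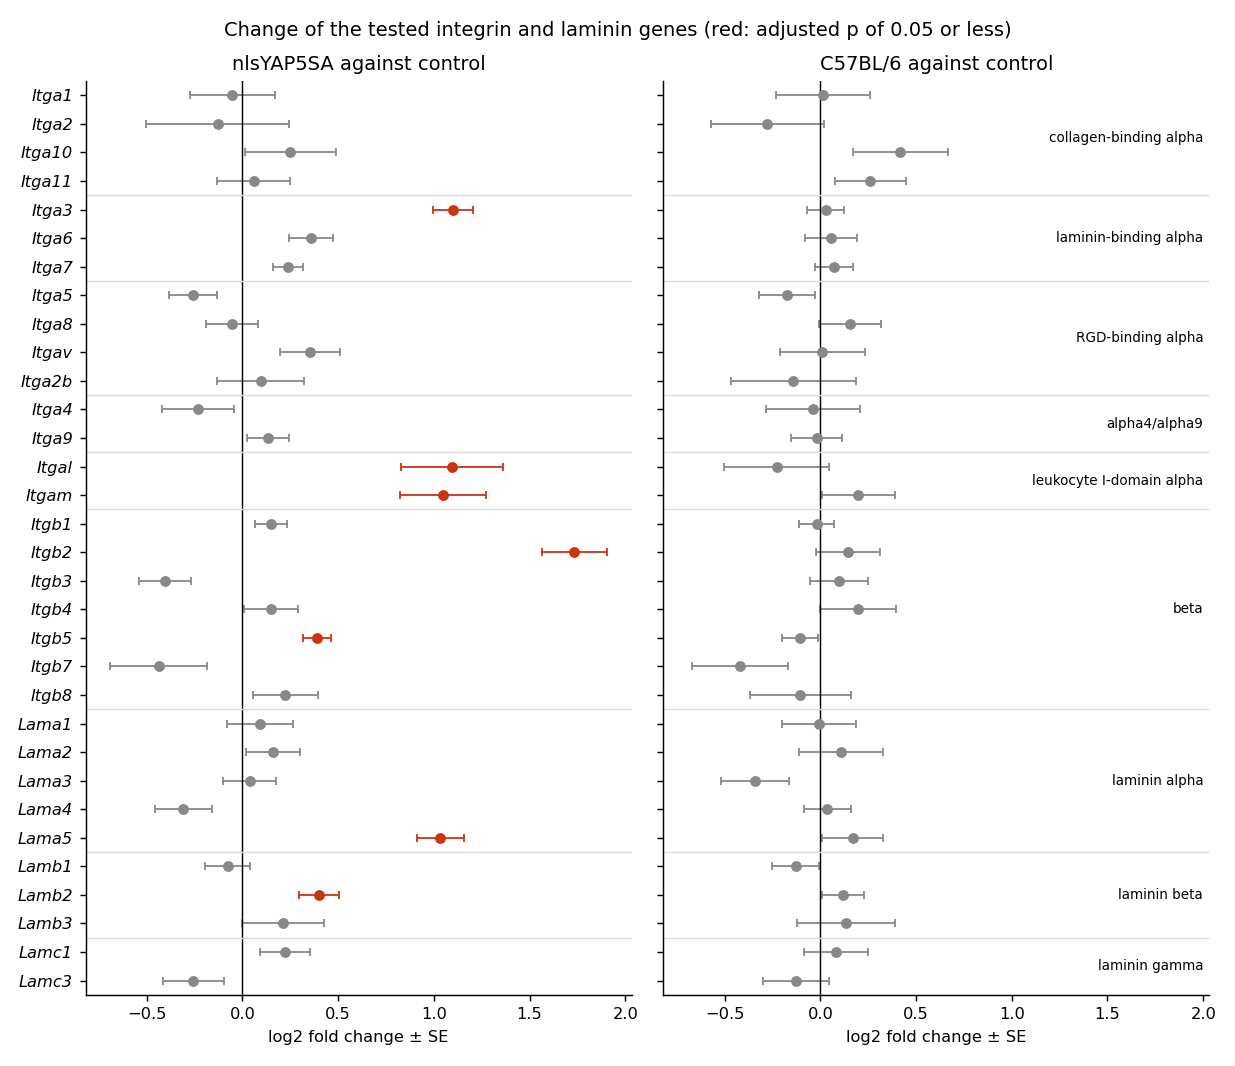
Log2 fold change (x axis, log2 scale) with its SE for the 32 genes tested, ordered by role, in nlsYAP5SA against control mice (left) and C57BL/6 against control mice (right). Red points, with an edgeR adjusted p of 0.05 or less, are 7 genes on the left, all to the right of 0, and none on the right.

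Promoter sequence from RefSeq (GRCm38.p6, 250 bases before an annotated start) was held for 23 of the 36 genes in 26 windows, among them Itga3, Itgam, Itgb5, Lama5 and Lamb2 of the 7 called. They were searched on both strands for GGAATG, the core of the site of TEAD factors, through which YAP1 binds DNA, and for GAGGAA, that of PU.1, a factor of macrophages and microglia. These 5 are shown because they were called higher, and Itgb1 as an abundant gene that was not called and holds a TEAD letter match. Sequences run 5′ to 3′ along the gene, stop before its first annotated base in GENCODE M21, and have matches to either motif in capitals; in Itgb1 the motifs overlap in 1 run.
Itga3, chr11:95076802-95076964, minus strand: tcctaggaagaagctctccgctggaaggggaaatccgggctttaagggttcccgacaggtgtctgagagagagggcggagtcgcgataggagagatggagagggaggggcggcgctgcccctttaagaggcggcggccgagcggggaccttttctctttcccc
Lama5, chr2:180225860-180226109, minus strand: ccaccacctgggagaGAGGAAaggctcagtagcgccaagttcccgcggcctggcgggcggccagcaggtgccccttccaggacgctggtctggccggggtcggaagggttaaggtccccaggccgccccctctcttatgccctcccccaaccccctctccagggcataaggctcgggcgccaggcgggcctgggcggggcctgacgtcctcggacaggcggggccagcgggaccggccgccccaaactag
Lamb2, chr9:108479612-108479735, plus strand: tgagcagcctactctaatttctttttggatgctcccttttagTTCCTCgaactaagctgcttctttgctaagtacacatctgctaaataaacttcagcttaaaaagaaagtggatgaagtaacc
Itgb5, chr16:33829415-33829664, plus strand: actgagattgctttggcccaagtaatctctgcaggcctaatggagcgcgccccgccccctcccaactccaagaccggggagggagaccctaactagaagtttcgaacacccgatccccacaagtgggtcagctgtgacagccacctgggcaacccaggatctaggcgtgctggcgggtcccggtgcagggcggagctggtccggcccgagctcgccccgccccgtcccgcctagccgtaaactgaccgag
Itgam, chr7:128062390-128062639, plus strand: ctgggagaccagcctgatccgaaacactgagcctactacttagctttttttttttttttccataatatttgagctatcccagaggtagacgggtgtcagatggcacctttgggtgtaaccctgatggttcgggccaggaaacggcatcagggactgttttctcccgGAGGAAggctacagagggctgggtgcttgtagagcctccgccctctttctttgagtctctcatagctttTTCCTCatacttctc
Itgb1, chr8:128685404-128685653, plus strand: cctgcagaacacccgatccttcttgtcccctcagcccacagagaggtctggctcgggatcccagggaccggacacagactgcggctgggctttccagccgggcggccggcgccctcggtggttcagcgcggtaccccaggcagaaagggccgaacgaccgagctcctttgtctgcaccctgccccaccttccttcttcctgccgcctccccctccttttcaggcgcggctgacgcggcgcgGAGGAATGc
GGAATG stood in 3 of the 26 windows (11.5%, those of Itga10, Itgb1 and Lamb3) and in 12.6% of all 32851 promoters of the same length, and in none of the 6 windows of called genes. GAGGAA stood in 13 of the 26, against 23.3% of all promoters, and in 4 of the 6 windows of called genes. It lay in Lama5, Lamb2, Itgb1 and, on both strands, Itgam among the sequences shown. Shares were counted over the whole 250 bases of each window. TGANTCA, the site of AP-1, was found in 3.85% of members' windows and 6.75% of all, and GGGCGG, that of Sp1, in 34.6% and 32.7%. Of the 6 windows of called genes, none held TGANTCA and 5 held GGGCGG. With 6 windows of 5 genes these counts are a description. A match is a match of letters only, and the windows do not reach enhancers.

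Among the laminin-binding alpha subunits, Itga3 rose, and Itga6 and Itga7 did not pass the threshold. Itga3 (chr11:95044474-95076801, minus strand) encodes the alpha3 subunit, which pairs with Itgb1 and binds laminins with a Lama3 or Lama5 chain. Itga3 was measured at 17.3, 13.04, 14.2, 14.4 and 15.3 CPM in control mice 1 to 5, 33.7, 35.2, 26.7, 27.6 and 36.2 CPM in nlsYAP5SA mice 1 to 5 and 14.7, 15.2 and 15.5 CPM in C57BL/6 mice 1 to 3. All 5 nlsYAP5SA mice stood above the 8 other mice, and mice 3 and 4, the libraries with Y-linked RNA, were the lowest of the 5. Itga3 was 2.14-fold higher than in controls (log2 fold change 1.10 ± 0.11 (SE), edgeR adjusted p = 3.11e-05). Itga6, which binds laminin with Itgb1 or Itgb4, was at 32.9 to 47.3 CPM in the controls and 43.99 to 61.4 CPM in the nlsYAP5SA mice, overlapping, with a log2 fold change of 0.36 ± 0.11 (SE) and an edgeR adjusted p of 0.0668, and it was called higher without nlsYAP5SA mouse 3, by DESeq2's Wald test and with a robust loess correction for GC content and length. Itga7, the laminin receptor subunit of muscle, lay higher in every nlsYAP5SA mouse (12.7 to 15.3 CPM) than in every control (10.5 to 12.6 CPM). Its log2 fold change was 0.24 ± 0.08 (SE), with an edgeR adjusted p of 0.0814, and it was called higher with the ordinary and the robust loess correction. Their summed level was 61.9 to 73.4 CPM in the controls, 83.7 to 113 CPM in the nlsYAP5SA and 66.8 to 78.1 CPM in C57BL/6 mice.

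None of the other 10 alpha subunits outside the leukocyte class was called. The collagen receptor subunits Itga1, Itga2, Itga10 and Itga11 ranged in log2 fold change from -0.13 to 0.25, with SEs of 0.19 to 0.37. Counts of Itga10 are uncertain, since the read-through gene Gm42957 on the same strand covers 33.5% of its exon bases. Of the subunits that bind RGD peptides, Itgav, whose dimers activate latent TGF-beta, had a log2 fold change of 0.35 ± 0.16 (SE) (edgeR adjusted p = 0.193) and Itga5, the fibronectin receptor, of -0.26 ± 0.13 (SE) (edgeR adjusted p = 0.237). Itga8, a receptor of nephronectin, and Itga2b, the platelet fibrinogen receptor, were at -0.06 and 0.10. Itga4, the VCAM1 receptor, was at -0.23 and Itga9 at 0.13. Itga4 overlaps Cerkl on the opposite strand in 8.04% of its exon bases, and the strand setting of the counting is not given in the sources used here.

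Of the leukocyte integrins, the shared beta subunit Itgb2 and the alpha subunits Itgam and Itgal rose in nlsYAP5SA mice. Itgb2 (chr10:77530252-77565708, plus strand) encodes CD18. Itgb2 was measured at 2.78, 2.43, 2.42, 2.77 and 2.03 CPM in control mice 1 to 5, 7.37, 9.28, 5.42, 9.57 and 9.93 CPM in nlsYAP5SA mice 1 to 5 and 2.38, 3.35 and 2.54 CPM in C57BL/6 mice 1 to 3. Every nlsYAP5SA mouse exceeded all 8 others, mouse 3 being the lowest of the 5. Itgb2 was 3.32-fold higher than in controls (log2 fold change 1.73 ± 0.17 (SE), edgeR adjusted p = 3.55e-05), the largest change among the 32 genes tested.

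Itgam (chr7:128062640-128118491, plus strand) encodes CD11b, the alpha subunit of the complement receptor of microglia and myeloid cells. Itgam was measured at 11.7, 13.5, 21.7, 16.9 and 19.5 CPM in control mice 1 to 5, 30.1, 40.9, 18.1, 44.05 and 38.5 CPM in nlsYAP5SA mice 1 to 5 and 16.6, 19.4 and 21.2 CPM in C57BL/6 mice 1 to 3. The groups overlapped: nlsYAP5SA mouse 3 lay below controls 3 and 5, and the other 4 nlsYAP5SA mice lay above every control. The fold was 2.06 (log2 fold change 1.05 ± 0.22 (SE), edgeR adjusted p = 0.00967). The read-through gene Gm49368 shares 68.7% of the exon bases of Itgam on the same strand, so the split of reads between them is uncertain, and with its reads added to Itgam the 7 calls were the same.

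Itgal (chr7:127296260-127335138, plus strand) encodes CD11a, which with CD18 forms the receptor LFA-1 for ICAM proteins. Itgal was measured at 1.19, 1.68, 1.33, 2.44 and 1.70 CPM in control mice 1 to 5, 2.49, 4.28, 1.99, 4.96 and 4.12 CPM in nlsYAP5SA mice 1 to 5 and 1.79, 1.44 and 1.05 CPM in C57BL/6 mice 1 to 3. Here nlsYAP5SA mouse 3 lay below control 4, and mouse 1 close to it. Itgal was 2.13-fold higher (log2 fold change 1.09 ± 0.27 (SE), edgeR adjusted p = 0.0198), and the call was lost without nlsYAP5SA mouse 2 (edgeR adjusted p = 0.0524) or mouse 5 (edgeR adjusted p = 0.0553).

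Itgax encodes CD11c, a subunit of dendritic cells and of activated microglia. Itgax was measured at 0, 0.157, 0.208, 0.0840 and 0.0472 CPM in control mice 1 to 5, 0.814, 1.08, 0.0867, 1.52 and 1.31 CPM in nlsYAP5SA mice 1 to 5 and 0.0897, 0.144 and 0.0807 CPM in C57BL/6 mice 1 to 3. Mouse 3 of the nlsYAP5SA group lay within the range of the controls, and the other 4 lay above every mouse of the other groups. Controls held 0 to 5 reads of it and nlsYAP5SA libraries 2 to 35, too few to pass the filter, so Itgax was not tested against controls here. Where any 1 control or nlsYAP5SA mouse 3 was left out it passed the filter, through the nlsYAP5SA libraries alone, where it was high, so its calls as higher there are no support. With no filter on low counts it was called higher, with 8 genes called in all. Itgad (CD11d) and Itgae (CD103), at 0.0937 to 0.433 and 0.173 to 0.522 CPM in nlsYAP5SA mice, overlapped with controls (0.0818 to 0.375 and 0.142 to 0.450 CPM).

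Microglial markers were higher in the same libraries. Of 8 marker genes 6 were called higher in nlsYAP5SA mice and none lower (median log2 fold change 0.68), and no marker was at 0. Their summed level was 292 to 365 CPM in the controls, 414 to 537 CPM in the nlsYAP5SA mice and 309 to 363 CPM in C57BL/6 mice, and nlsYAP5SA mouse 3, with the lowest Itgb2, Itgam, Itgal and Itgax of its group, also had its lowest sum (414 CPM). Of neutrophil and monocyte markers 1 of 5, Ccr2, passed the filter, mainly through 4 nlsYAP5SA libraries where it was high, and was called higher although the groups overlapped, and the sum of the list was 0.125 to 0.654 CPM in the controls and 0.650 to 4.85 CPM in the nlsYAP5SA mice. T cell markers summed to 3.52 to 4.91 and 3.83 to 5.88 CPM, most of it Cd4, while Cd3e was at 0.0249 ± 0.0372 and 0.0438 ± 0.0434 CPM (SD, n = 5 each). The part of these cells in the higher leukocyte integrins was not tested.

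**Figure D2:**
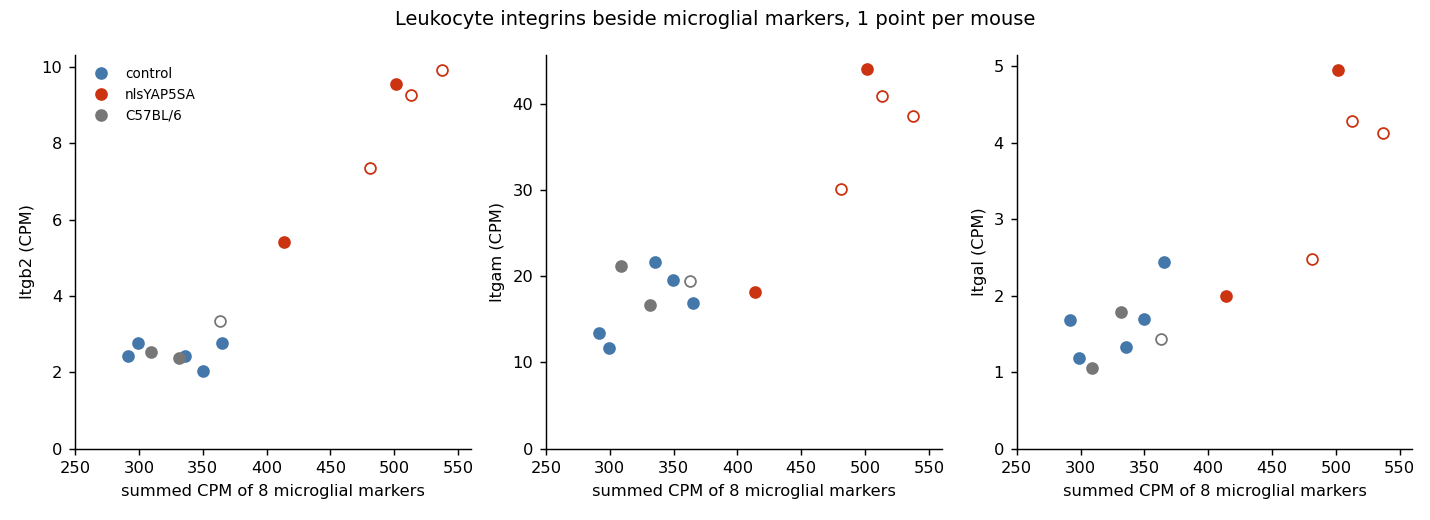
CPM of Itgb2, Itgam and Itgal (y axes) against the summed CPM of 8 microglial markers (x axis, from 250 CPM), 1 point per mouse, with open points for libraries without Y-linked RNA. The nlsYAP5SA mice lie to the right of all others, at 414 to 537 CPM of the markers, and the leftmost of them, mouse 3, has the lowest level of all 3 integrins in its group.

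Of the other 7 beta subunits, 6 were tested and Itgb5 rose. Itgb5 (chr16:33829665-33949338, plus strand) pairs with Itgav to bind vitronectin. Itgb5 was measured at 36.5, 33.7, 31.4, 38.7 and 34.9 CPM in control mice 1 to 5, 44.1, 46.2, 40.7, 47.9 and 50.7 CPM in nlsYAP5SA mice 1 to 5 and 30.7, 36.8 and 30.04 CPM in C57BL/6 mice 1 to 3. Each nlsYAP5SA mouse stood above each of the others, mouse 3 again lowest. Itgb5 was 1.31-fold higher than in controls (log2 fold change 0.39 ± 0.07 (SE), edgeR adjusted p = 0.00397). Itgb3, the other beta subunit of vitronectin receptors, was lower in the mean, at 8.10 ± 1.45 CPM in controls and 6.13 ± 0.887 CPM in nlsYAP5SA mice (SD, n = 5 each). Its log2 fold change was -0.41 ± 0.14 (SE), with an edgeR adjusted p of 0.0785. Itgb3 was called lower by DESeq2's Wald test, without control 1 or 5, and with the ordinary and the robust loess correction for GC content and length. Itgb1, at 147 ± 15.2 and 163 ± 15.8 CPM, was not called (log2 fold change 0.15 ± 0.08 (SE), edgeR adjusted p = 0.297). Itgb8, the beta subunit that activates TGF-beta with Itgav in the developing brain, had 0.22 ± 0.17 (SE), Itgb4, of hemidesmosomes, 0.15 ± 0.14 (SE), and Itgb7, of lymphocytes, -0.44 ± 0.25 (SE).

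**Figure D3:**
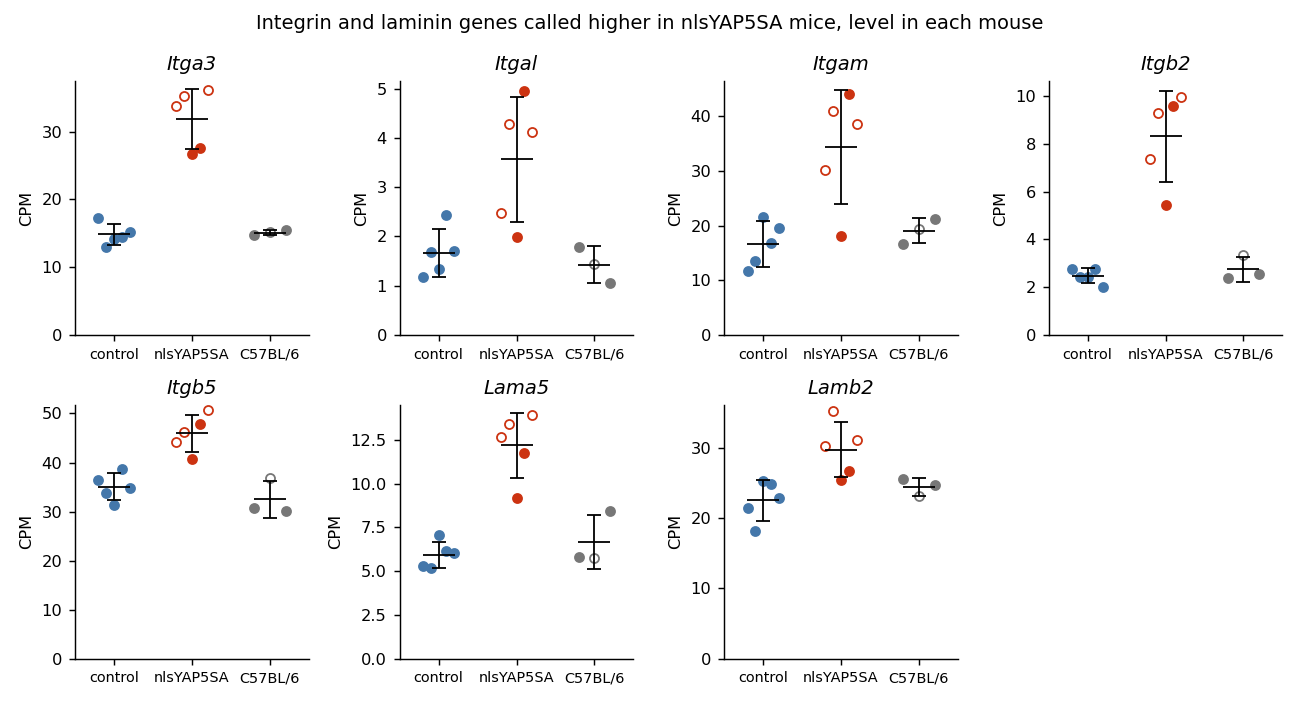
Level in CPM (y axis from 0) of the 7 genes called higher in nlsYAP5SA mice, in each mouse, with the mean and SD of each group as a bar and whiskers and open points for libraries without Y-linked RNA. In all but Itgal and Itgam the 5 nlsYAP5SA mice lie above the 5 controls, and the 3 C57BL/6 mice lie near the controls.

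Among laminin alpha chains, Lama5 rose and the other 4 were not called. Lama5 (chr2:180176373-180225859, minus strand) is a chain of mature vascular and epithelial basement membranes. Lama5 was measured at 5.28, 5.21, 7.04, 6.13 and 6.05 CPM in control mice 1 to 5, 12.7, 13.4, 9.19, 11.7 and 13.9 CPM in nlsYAP5SA mice 1 to 5 and 5.78, 5.75 and 8.44 CPM in C57BL/6 mice 1 to 3. Every nlsYAP5SA mouse was above every other mouse, the margin being smallest between nlsYAP5SA mouse 3 and C57BL/6 mouse 3. Lama5 was 2.05-fold higher than in controls (log2 fold change 1.03 ± 0.12 (SE), edgeR adjusted p = 1.52e-04). Lama4, the other endothelial alpha chain, was at 26.3 ± 3.58 CPM in controls and 21.2 ± 4.88 CPM in nlsYAP5SA mice (SD, n = 5 each; log2 fold change -0.31 ± 0.15 (SE), edgeR adjusted p = 0.229). Lama1 and Lama2, of the pial and glial basement membrane, and Lama3, of epithelia, had log2 fold changes of 0.09 ± 0.17 (SE), 0.16 ± 0.14 (SE) and 0.04 ± 0.14 (SE).

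Taken per length within each mouse, Lama5 made up 10.4% to 12.8% of the 5 alpha chains in controls and 19.6% to 25.04% in nlsYAP5SA mice, and Lama4 45.5% to 50.3% and 32.4% to 41.4%. In neither gene did these shares overlap, and the C57BL/6 mice, with 11.1% to 13.2% for Lama5 and 43.1% to 50.6% for Lama4, lay with or near the controls. The sum over the 5 chains was 4.61 ± 0.699 CPM per kilobase in controls and 4.90 ± 0.815 in nlsYAP5SA mice (SD, n = 5 each), a difference smaller than the spread. These shares are descriptions with no test, and as shares a higher one lowers the others.

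Among the laminin beta chains, Lamb2 rose. Lamb2 (chr9:108479736-108490530, plus strand) replaces Lamb1 in the basement membranes of vessels and synapses. Lamb2 was measured at 21.4, 18.2, 25.3, 24.9 and 22.8 CPM in control mice 1 to 5, 30.3, 35.2, 25.4, 26.6 and 31.1 CPM in nlsYAP5SA mice 1 to 5 and 25.5, 23.1 and 24.7 CPM in C57BL/6 mice 1 to 3. The nlsYAP5SA mice lay above the controls, mouse 3 only just above control 3 and below C57BL/6 mouse 1. The fold was 1.32 (log2 fold change 0.40 ± 0.10 (SE), edgeR adjusted p = 0.0285), the weakest of the 7 calls, and it was lost in 10 of 24 alternative settings, among them the level of Ttr as a covariate (edgeR adjusted p = 0.0771) and the settings without control 1, 2 or 5 or without nlsYAP5SA mouse 1, 2 or 5 (edgeR adjusted p = 0.0529 to 0.0758). Its log2 fold change was 0.37 with the Ttr covariate and 0.33 to 0.40 without those mice, and it was 0.22 with Y-linked genes as a covariate. Lamb1 was at 37.4 ± 4.72 CPM in controls and 35.5 ± 6.04 CPM in nlsYAP5SA mice, with a log2 fold change of -0.08 ± 0.12 (SE). Lamb3, a chain of epithelial laminin, was at 0.21 ± 0.21 (SE). Lamc1, the gamma chain of most laminins, and Lamc3, a rarer one, had 0.22 ± 0.13 (SE) and -0.26 ± 0.16 (SE), neither of them called.

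**Figure D4:**
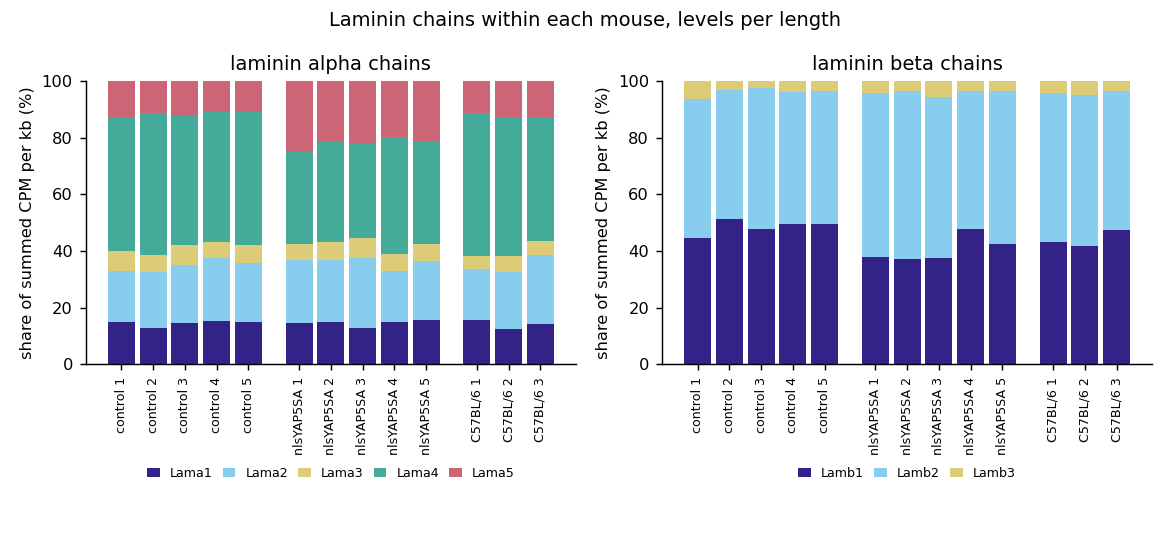
Share (y axis, percent) of each chain in the summed CPM per kilobase of the laminin alpha and beta chains, 1 bar per mouse. The share of Lama5 is 19.6% to 25.04% in nlsYAP5SA mice and at most 13.2% in the other 8, and that of Lama4 is lower in every nlsYAP5SA mouse than in every other mouse.

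Markers of vascular and meningeal cells, which make laminins, had calls in both directions. Of 8 endothelial markers Cldn5 and Cdh5 were called lower and Slc2a1 higher (summed level 221 to 252 CPM in the controls, 209 to 263 CPM in the nlsYAP5SA mice). Of 7 mural cell markers Rgs5 and Kcnj8 were called lower and Acta2 higher (266 to 346 and 186 to 297 CPM). Of 6 leptomeningeal fibroblast markers Lum was called lower and Col1a2 higher (291 to 408 and 283 to 446 CPM). In these 3 lists the summed levels of the groups overlapped. In the mean, 6 of the 8 endothelial markers (median log2 fold change -0.24) and 5 of the 7 mural markers (median -0.09) were lower, and 4 of the 6 fibroblast markers were higher (median 0.11). An unadjusted edgeR p of 0.05 or less was reached by 7 of the 8 endothelial markers, and by 3984 of all 16315 genes. Astrocyte markers had 4 genes called higher and 1 lower of 8 (3309 to 5759 and 5152 to 7176 CPM), choroid plexus markers 1 higher of 8 (116 to 360.1 and 115 to 538 CPM), and ciliated ependyma 1 higher of 7 (13.8 to 27.8 and 24.6 to 30.9 CPM). In the mean, 7 of the 8 astrocyte (median 0.29), 8 of the 8 choroid plexus (median 0.65) and 6 of the 7 ependymal markers (median 0.56) were higher. No marker of these lists was at 0 in every library. Of 6 oligodendrocyte markers none was called, though all 6 were lower in the mean (median log2 fold change -0.54) and 5 had an unadjusted edgeR p of 0.05 or less, with sums of 2078 to 3483 and 1332 to 2870.3 CPM. Of precursor markers 2 of 5 were called lower and 3 of 5 were lower in the mean, of cortical excitatory neuron markers 1 of 6, Neurod6, whose locus carries Cre in nlsYAP5SA mice, was called lower and 5 of 6 were lower in the mean, and of platelet markers, of which 1 of 4 was tested, none was called. The part of any of these cells in the laminin and integrin results was not tested.

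The C57BL/6 mice, which carry neither transgene nor Cre, were compared with the controls to see whether the unrecombined transgene goes along with other levels. Of 32 genes tested none was called, with edgeR or with DESeq2, where 0.169% of all 16546 genes were called, and 0 of the 32 reached an unadjusted p of 0.05 in edgeR. The log2 fold changes ranged from -0.42 (Itgb7) to 0.42 (Itga10), both overlapping between groups, and the median of the 32 was 0.02. The 7 genes called in nlsYAP5SA mice had log2 fold changes between -0.23 (Itgal) and 0.20 (Itgam). With 3 C57BL/6 mice a small difference could be missed. These mice were not littermates of the controls, so the transgene and the litter cannot be told apart here.

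Set against C57BL/6 mice, the same 5 nlsYAP5SA mice showed 6 of 33 tested genes called higher and none lower, where 6.38% of all 16641 genes were called and 4.16% called higher. Among the 6 is Itgax, which passed the filter on low counts only through the nlsYAP5SA libraries, so 5 of the other 32 are the count to read against that share. As the comparison shares the nlsYAP5SA mice with the first, it is no independent repeat of it. The called genes were Itga3 (log2 fold change 1.06, against 1.10 with controls), Itgal (1.31 and 1.09), Itgb2 (1.58 and 1.73), Itgb5 (0.48 and 0.39), Lama5 (0.85 and 1.03) and Itgax. Itgax was at 3.14 ± 0.81 (SE) with an edgeR adjusted p of 0.0485, and nlsYAP5SA mouse 3 overlapped with the C57BL/6 mice. Itgam was at 0.83 ± 0.25 (SE) (edgeR adjusted p = 0.0847) and Lamb2 at 0.27 ± 0.11 (SE) (edgeR adjusted p = 0.192), neither called. Itgb3 was not called either, but it was called lower by DESeq2's Wald test and without nlsYAP5SA mouse 4. The same DESeq2 test called Itgam higher. The number called fell to 3 without nlsYAP5SA mouse 2 or without C57BL/6 mouse 2, and to 2, Itga3 and Itgb2, without nlsYAP5SA mouse 5 or without C57BL/6 mouse 1. The share of all genes called fell in these settings too, from 6.38% to between 2.37% and 3.9%. Itgal lost its call in 7 of 17 alternative settings, among them the loss of nlsYAP5SA mouse 2, 4 or 5 or of any C57BL/6 mouse. Itgax lost it in 8 of 16, where the loss of nlsYAP5SA mouse 1 comes in addition. Lama5 lost its call in 5 of 17, among them the loss of nlsYAP5SA mouse 2 or 5 or of C57BL/6 mouse 1 or 2. Itgb5 lost its call in 3 of 17.

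Genes that work with integrins and laminins were read from the same comparison of nlsYAP5SA mice with controls. Of 56 such genes 54 were tested, 16 were called higher and 3 lower, 35.2% against 10.8% of all genes. The lists were chosen with earlier results of these data known, so this share is a description and no test of them. Among 22 adaptors and kinases of integrin adhesions, 6 were higher and 1 lower. Fermt3, the kindlin of blood cells that activates leukocyte integrins, went from 3.62 ± 0.675 to 7.42 ± 0.874 CPM (log2 fold change 1.03 ± 0.14 (SE), edgeR adjusted p = 3.61e-04). Parvg, the parvin of blood cells, and Tns1, a tensin, rose by 0.71 and 0.52 on the log2 scale, and Lims2, an adaptor of ILK, was at -0.38. Ptk2 and Ilk, the focal adhesion kinase and the integrin-linked kinase, were at -0.05 and -0.02 and not called.

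Of 16 basement membrane proteins and matrix ligands, 4 rose and 1 fell. Spp1 (osteopontin), an RGD ligand, was at 4.50 to 6.26 CPM in the control group and 24.1 to 58.96 CPM in the nlsYAP5SA group (log2 fold change 3.08 ± 0.25 (SE), edgeR adjusted p = 9.12e-06), and Thbs1 (thrombospondin 1) at 8.18 to 12.7 and 37.6 to 96.7 CPM (log2 fold change 2.75 ± 0.24 (SE), edgeR adjusted p = 1.59e-05). Hspg2 (perlecan) and Ntn4, both found in basement membranes with laminin, rose by 0.70 and 0.44 on the log2 scale. Vtn (vitronectin), the ligand of the Itgav dimers with Itgb3 and Itgb5, fell, with a log2 fold change of -0.39 ± 0.07 (SE); it lies outside the 4 largest changes and was named after its value was seen. Nid1, Nid2, Col4a1, Col4a2 and Agrn, the other main parts of basement membranes, were not called.

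Of 7 laminin receptors other than integrins, 3 rose: Bcam, the receptor of Lama5, from 13.7 ± 1.32 to 26.6 ± 3.21 CPM (log2 fold change 0.96 ± 0.10 (SE), edgeR adjusted p = 4.37e-05), and the syndecans Sdc4 (0.84) and Sdc2 (0.35). Dag1 (dystroglycan), the main such receptor of glial endfeet, was at 0.12 and not called. Of 11 ligands of leukocyte integrins 9 were tested, 3 rose and 1 fell. C3, whose fragment binds CD11b/CD18, was at 1.10 ± 0.24 (SE) (edgeR adjusted p = 0.0113), Icam1 at 0.91 and F11r at 0.49, all higher, while Icam2, an endothelial ligand of LFA-1, was at -0.64, lower. Among libraries with Y-linked RNA alone, 55 genes of these lists were tested, and 6 of the 19 calls remained, 5 higher and 1 lower. Of all 16918 genes tested in those libraries 1.97% were called, against 10.8% with all libraries of the 2 groups. Set against C57BL/6 mice, with the nlsYAP5SA mice shared, 7 of the 54 tested were called higher and 2 lower. This is 16.7% against 6.38% of all genes, again a description only. Fermt3 was the only adaptor called there, Spp1, Thbs1 and Ntn4 among the matrix ligands and Bcam, Sdc4 and Sdc2 among the receptors were called higher, and Vtn and Icam2 lower. C3, Icam1 and F11r were not called.

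**Figure D5:**
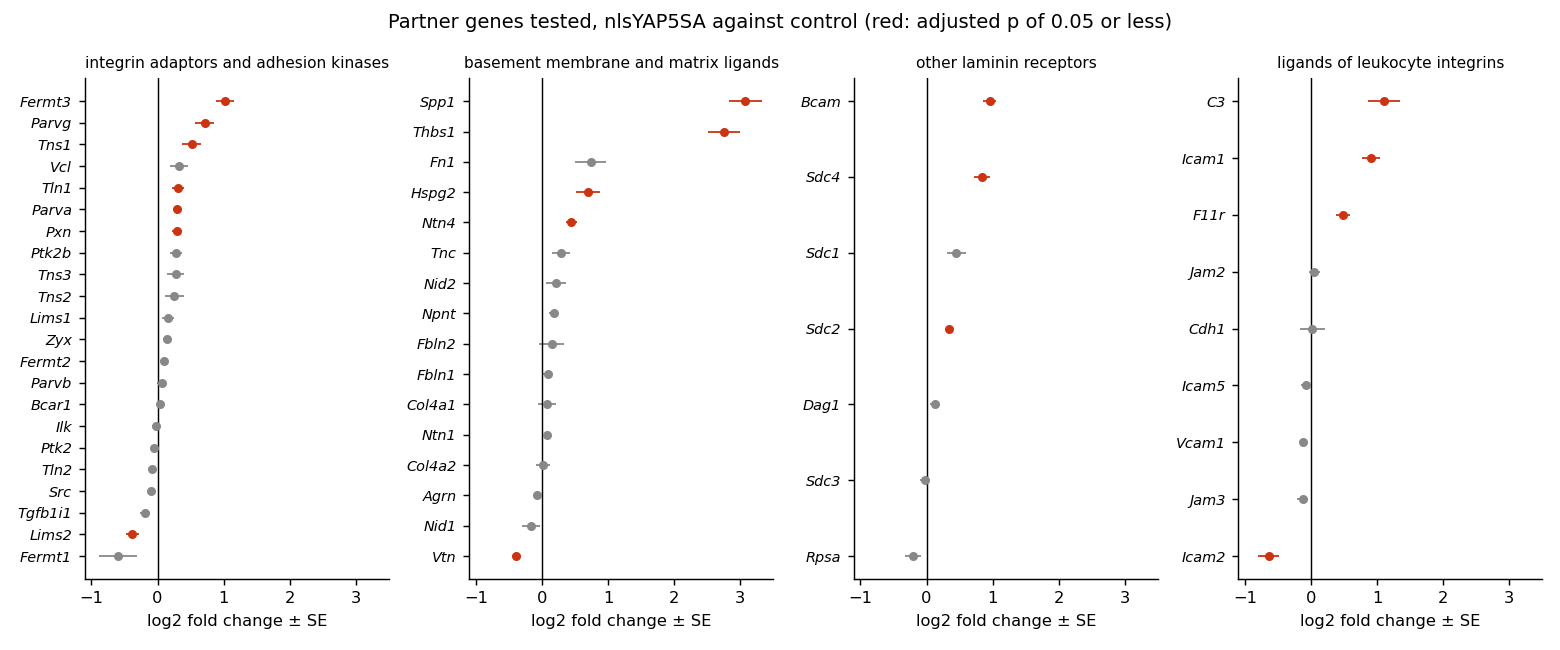
Log2 fold change with its SE (x axis, log2 scale) of the 54 tested partner genes in nlsYAP5SA against control mice, in 4 panels by list and sorted within each. Red points have an edgeR adjusted p of 0.05 or less: 16 lie to the right of 0 and 3 (Lims2, Vtn and Icam2) to the left.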

How the data were processed

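Hemisphere RNA of 13 mice was sequenced as poly(A) libraries (KAPA mRNA HyperPrep). The estimated counts that the authors deposited, 1 table for all mice and not normalised, were made with CutAdapt 1.5, STAR, SAMtools 1.8 and RSEM 1.3.0 on GRCm38 with Ensembl transcripts; the strand setting is not given in the sources used here. Between 12.4% and 13.3% of values per library were not whole, since RSEM splits reads shared by genes, and values were rounded.

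Groups came from the genotype labels. Genes were kept by filterByExpr (minimum count 10, minimum total 15), scaled by TMM and tested by edgeR's quasi-likelihood test (edgeR 4.0.16, limma 3.58.1, R 4.3.3) between each pair of groups, with Benjamini-Hochberg adjustment over all genes kept and a threshold of 0.05. On simulated counts with 200 changed genes the scripts were tested first. Levels are CPM with 1 TMM scaling over all 13 libraries. SE is the log2 fold change divided by the square root of F. Gene positions and exon lengths are from GENCODE M21 (GRCm38), promoters from RefSeq. Any 2 libraries of a group differed by more than sampling noise (lowest chi-square per degree of freedom 7.22). Libraries of a group are separate mice.

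The members, the partner and marker lists and the alternatives were chosen with earlier results of these data known. All reported members are named, and 1 gene of the rule is not reported here. Of each partner list, the called genes with the 4 largest changes are named, and partners that were not called were named for their role after their values were seen. Alternatives were DESeq2 1.42.0, other scalings, filters and offsets, a replicate block, covariates, and leaving out each mouse. Using libraries with Y-linked RNA alone, and adding reads of overlapping genes, were alternatives chosen after seeing the data.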

Additional observations from a re-analysis of the deposited data

How the results depend on the processing

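Against controls, the number of integrin and laminin genes called in nlsYAP5SA mice (7) stayed within 1.5 times in 11 of 14 alternatives other than leaving out a mouse. It was 11 with the ordinary loess for GC content and length, 3 with Y-linked genes as a covariate and 3 among libraries with Y-linked RNA alone, where the 4 lost were the same. The last of these settings leaves 2 nlsYAP5SA mice, and the covariate fit keeps all 5. The cause was not tested. Partner genes (19) went to 9 with the covariate and 6 in those libraries. All genes called went from 1761 to 554 and 334 likewise, and to 1239 with the block, 2259 with DESeq2, 2487 with robust and 3407 with ordinary loess, with 87.7%, 92.2%, 75.5%, 60.4%, 61.5% and 37.5% of calls higher (68.1% without). Itga3, Itgb2 and Lama5 were called in all 24 alternatives, with edgeR adjusted p of at most 0.00482, 0.00575 and 0.0272. DESeq2 called 9 members, adding Itga6 as higher and Itgb3 as lower, and the ordinary loess moved the median of all genes to -0.06. Leaving out each mouse gave 5 to 9 members against controls and 2 to 7 against C57BL/6 mice. The share of all genes called ranged there from 7.34% to 11.5% and from 2.37% to 10.4%. These member counts include Itgax without nlsYAP5SA mouse 3 and, against controls, without any 1 control, and those calls are no support. Partner genes called were 14 to 20. For C57BL/6 against control mice, 0 members were called under every alternative, with 15 to 59 genes called in all (28 in the reported test).

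Replicate numbers did not pair the mice: deviations of same-numbered control and nlsYAP5SA mice correlated at -0.26 to 0.23. With a replicate block 7 members were called against controls, losing Lamb2 and gaining Itga6, 14 partner genes, and 0 against C57BL/6 mice, where only 3 numbers are shared, against 6 without it, while all genes called there went from 1061 to 47 (0.282%).

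Depth limited Itgb6, Itgax, Itgad and Itgae, with at most 35 reads in a library. The sex, litter and mating of each mouse were not given, and only Y-linked RNA was used in a fit. All nlsYAP5SA mice came from 1 age, in whole tissue, and counts on Itgam and Itga10 depend on how reads shared with overlapping genes were split.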
